A study of Mus musculus with 9 samples.

Results

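Lipid-depleted tumor-conditioned medium was compared with complete tumor-conditioned medium (TCM) in primary fibroblasts from the skin of newborn wild-type mice. TCM was collected after 24 h from YUMM1.7 cells, a mouse melanoma line, in DMEM with 10% fetal bovine serum, and its depleted form was made with Cleanascite, a lipid-adsorbing reagent. The comparison used 3 libraries per medium, which is 6 of the 9 in the study, and all genes that reached a normalized count of 10 in 3 or more of the 6, which left 16489. The other 3 libraries are control fibroblasts, whose levels are given for reference and which entered a test only in 1 alternative fit of all 9 libraries. The fibroblasts were maintained in DMEM with 10% serum and 1% P/S, an addition the labels write in this short form. No group received control medium treated with the reagent, so an effect of the reagent itself cannot be told apart from an effect of losing lipids. How long the cells were exposed, and whether replicates were separate cultures or animals, is not given in the sources used here. The p-values therefore measure only the spread between these libraries.

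Cells take up fatty acids, sterols and lipoproteins from serum and from neighboring cells, and they answer to these lipids at several levels. Sterol shortage releases SREBP factors, which switch on cholesterol synthesis, whereas oxysterols act through LXR and fatty acids through PPAR receptors. Lysophosphatidic acid, sphingosine phosphate and prostaglandins act as signals through receptors on the cell surface, and retinoids and vitamin D, which are also lipid soluble, act through nuclear receptors. In fibroblasts such signals bear on division, contractility, matrix output and the release of cytokines.

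Lipid removal was followed by a broad shift. Of 16489 genes, limma called 6791 at an adjusted p under 0.05, which is 41.2%: 3405 were higher (20.7%) and 3386 were lower (20.5%) in lipid-depleted TCM. The counts of every list and family below are to be read beside these shares. Most differences were small, with a median fold of 1.35 among the higher genes and 1.33 among the lower ones. A difference of at least 2-fold was reached by 956 called genes (5.8%), 474 of them higher (2.87%) and 482 lower (2.92%). At least 4-fold differences were seen for 71 genes in the higher and 39 in the lower direction. The 3 libraries of one medium did not overlap with those of the other for 8765 genes, 53.2% of those tested. Called genes were fewest among weakly expressed genes: 18.1% of the 2681 genes with a mean count under 50 were called, against 51.5% of the 2254 genes at 5000 or more.

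**Figure D1:**
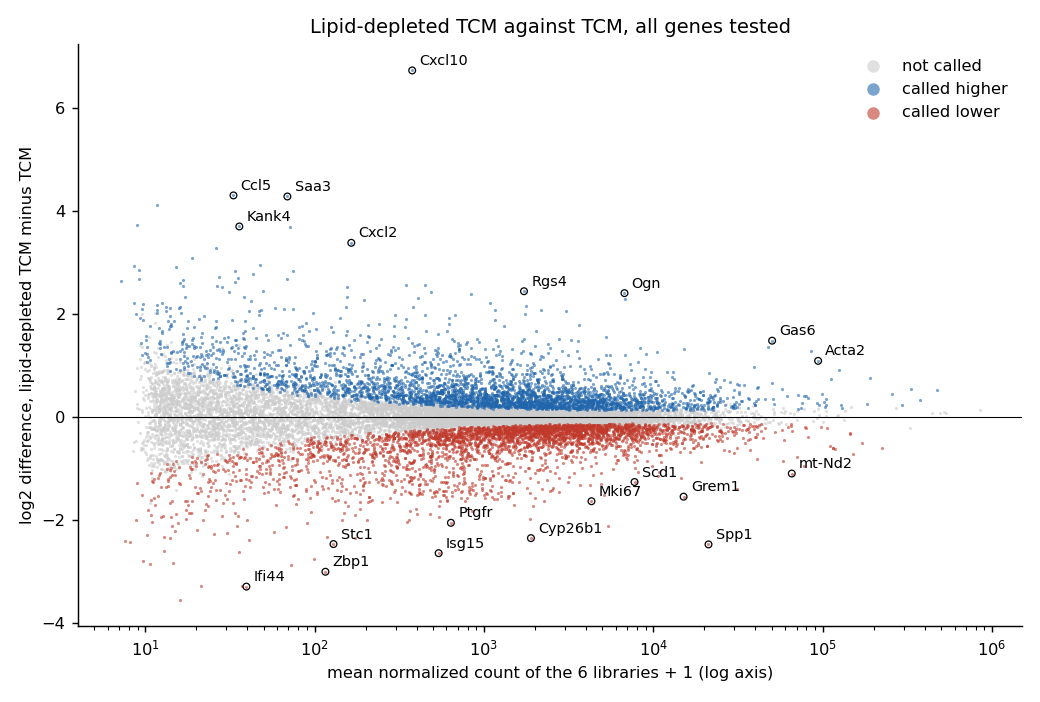
Each point is one of the 16489 genes, with its mean normalized count over the 6 libraries plus 1 on a log axis and its log2 difference, lipid-depleted TCM minus TCM, on the vertical axis. Blue and red points were called higher and lower. Cxcl10 stands at 6.72 at the top and Ifi44 at -3.29 near the bottom, while abundant genes such as Spp1, Gas6 and Acta2 moved by 1 to 2.5 units.

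Whole reads, recovered from the scaled counts, ranged from 52541877 to 64965906 in the 6 libraries. The first principal component held 66.4% of the variance and separated the media, and the second, with 13.3%, separated TCM replicates 1 and 2. TCM libraries varied more among themselves than lipid-depleted ones, with a median SD of 0.12 against 0.07 on the log2 scale, and leaving out TCM replicate 1 raised the number of called genes from 6791 to 8096. All 14 fibroblast markers passed the filter on low values, with 8 higher and 3 lower without lipids. Of 12 leukocyte and macrophage markers 4 were tested, with 1 higher and 1 lower. Ptprc reached at most 1.01 normalized counts in any of the 6 libraries, whereas Lyz2 rose from between 115 and 139 to between 344 and 379 and Cd68 fell from between 78 and 103 to between 45.9 and 62.9. Of 10 endothelial markers 6 were tested, with 2 higher and 0 lower. Cldn5 had no read and Pecam1 reached at most 13.2, but Flt1 lay between 1864 and 2359, and Tek rose from between 45.6 and 63.4 to between 75.3 and 92.8. Of 11 pericyte markers 10 were tested, 7 were higher and 0 lower, and Higd1b had no read. The sum of the pericyte markers went from between 13211 and 14948 in TCM to between 18947 and 19149. In control it was between 35553 and 37593. Of 12 melanocyte markers 9 were tested, with 3 higher (Mlana, Mitf and Gpnmb) and 2 lower (Sox10 and Erbb3). Mlana went from between 0.951 and 6.74 to between 29.3 and 37.5. Sox10 fell from between 144 and 232 to between 106 and 133, and Erbb3 from between 210 and 252 to between 182 and 194. Pmel, Tyrp1, Dct and S100b did not pass the test. The part of these cell type markers in the results below was not tested. In bulk RNA, fewer cells of a type and less RNA per cell cannot be told apart.

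**Figure D2:**
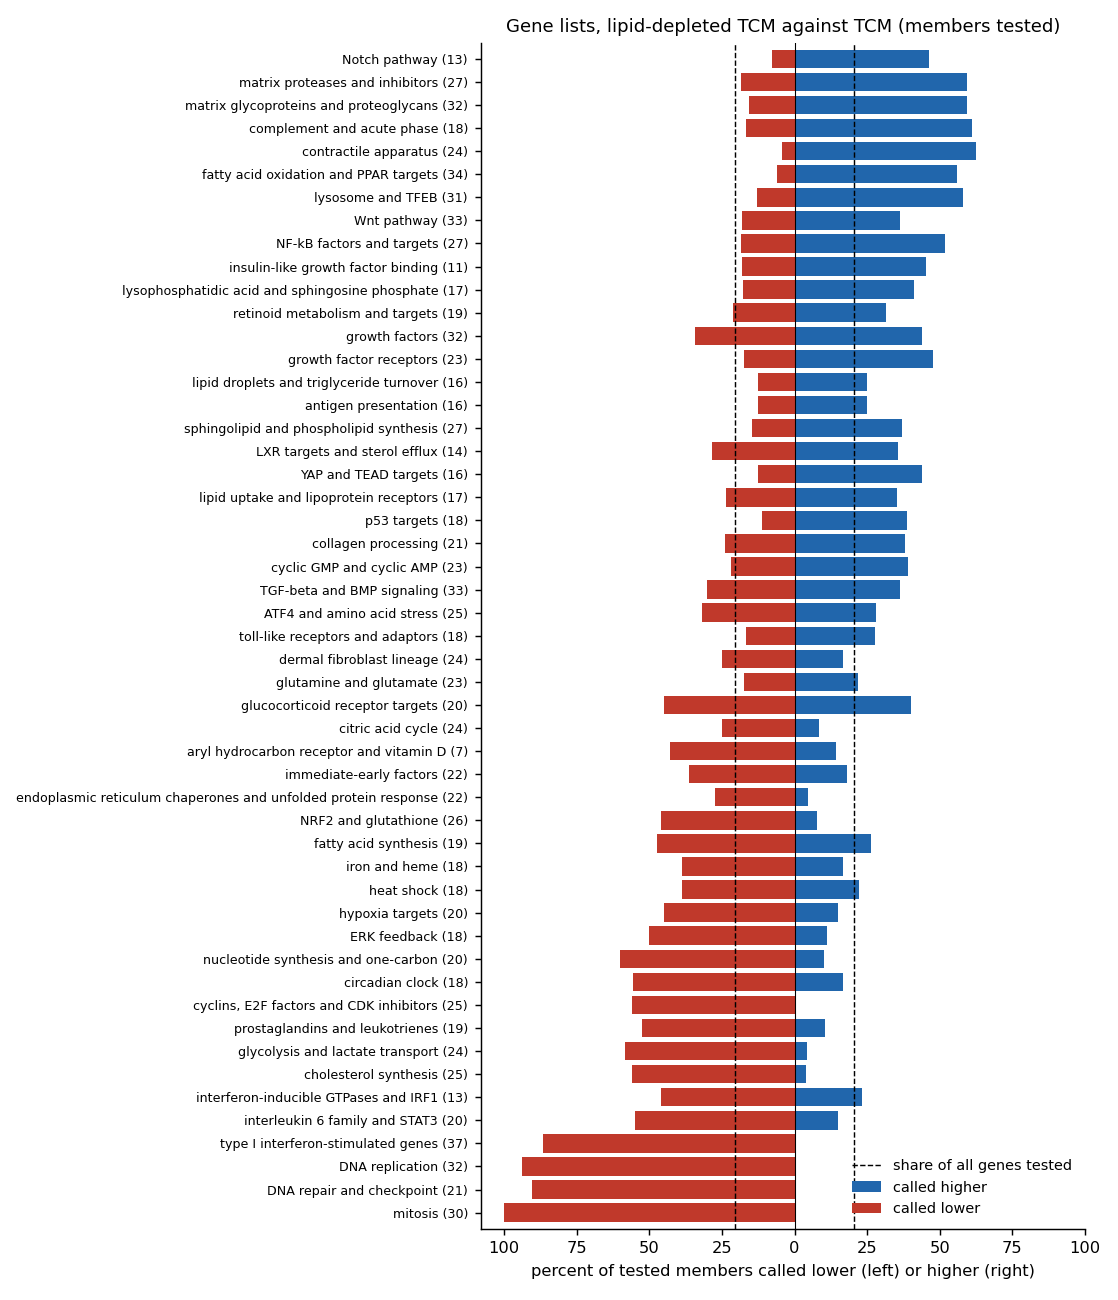
Each bar pair gives, for one gene list, the percent of its tested members called lower (red, left) and higher (blue, right) in lipid-depleted TCM, ordered by the list's median log2 difference, with the number tested in parentheses. Dashed lines mark 20.7% and 20.5%, the shares over all genes tested. The lists of mitosis, DNA replication, DNA repair and type I interferon-stimulated genes reach 86.5% to 100% lower with no member higher, and contractile, matrix, acute-phase and fatty acid oxidation lists lean to the higher side.

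More genes of sterol and fatty acid synthesis fell than rose without medium lipids. In the cholesterol synthesis list, which holds the mevalonate and sterol enzymes, 14 of 25 genes fell and 1 rose, with a median log2 difference of -0.28 against 0.01 over all genes tested. Cyp51, the sterol demethylase, had 4980.4, 5735 and 5334 normalized counts in the 3 TCM libraries and 4376, 3745 and 3976 in the lipid-depleted ones. Every lipid-depleted library was below every TCM library (log2 difference -0.41, SE 0.07, limma adjusted p = 0.0014). Lss, lanosterol synthase, fell by 0.37 and Sqle, squalene epoxidase, fell by 0.28. The single member that rose was Insig1, which holds SREBP in the endoplasmic reticulum and is itself an SREBP target, from 2106 ± 31 to 2561 ± 207 (SD, n = 3). Without TCM replicate 3 a second member was called higher, and the count of lower genes ranged from 12 to 15 with 1 library left out. For reference, in control cells Cyp51 was at 14892 ± 116 and Lss at 6728 ± 309. Hmgcs1, an enzyme of the mevalonate steps, and Srebf2, the gene of SREBP2, did not pass the test (log2 differences -0.15 and 0.18).

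Among fatty acid synthesis genes the larger decreases were at the desaturation and elongation steps. Scd1, which introduces the first double bond into saturated fatty acids, lies on chromosome 19 (44394455 to 44407879, minus strand, GRCm38). It had 11301, 10881 and 10571 normalized counts in TCM and 4585, 4460.0 and 4607 without lipids. The groups lay far apart, and the log2 difference of -1.26 (SE 0.05, limma adjusted p = 1.3e-07) is a 2.40-fold decrease. Elovl6, a fatty acid elongase, fell from 2220.4 ± 33.1 to 1322 ± 44.7, Scd2 from 37099 ± 841 to 22773 ± 830.3, and Fads2, a desaturase of polyunsaturated fatty acids, from 2239.9 ± 101 to 1424 ± 53.2. Of 19 tested members 9 fell (47.4%, beside 20.5% of all genes tested) and 5 rose (26.3%, beside 20.7%). The count of higher genes was 3 without lipid-depleted replicate 2. The members that rose included Lpin1 (0.58), a phosphatidate phosphatase, and Acacb (0.38), the acetyl-CoA carboxylase of the mitochondrial surface. Srebf1 did not pass the test (log2 difference -0.06, limma adjusted p = 0.64).

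Genes of fatty acid oxidation moved the other way. In that list, which also holds PPAR targets, 19 of 34 genes rose and 2 fell, with a median of 0.27. Pdk4, a kinase that shuts pyruvate out of the citric acid cycle, had 193, 258 and 216 normalized counts in TCM and 619, 567 and 563 without lipids. The lowest lipid-depleted library was above the highest TCM library by more than 2-fold, and the log2 difference was 1.40 (SE 0.12, limma adjusted p = 1.2e-05). Angptl4, an inhibitor of lipoprotein lipase, rose from 1487 ± 97.5 to 2766 ± 108. The enzymes followed in smaller steps: Cpt1a, which brings long-chain fatty acids into mitochondria, rose by 0.49, its partner Cpt2 by 0.45, and the dehydrogenases Acadl, Acads and Acadm by 0.35, 0.29 and 0.20. Plin2, the lipid droplet coat protein that is a common PPAR target, was at 10182 ± 643 and 10889 ± 93.2 and did not pass the test (limma adjusted p = 0.17). The 2 members that fell were Fabp4, a fatty acid carrier, by 0.46 and Ppard, the gene of PPAR delta, by 0.37.

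**Figure D3:**
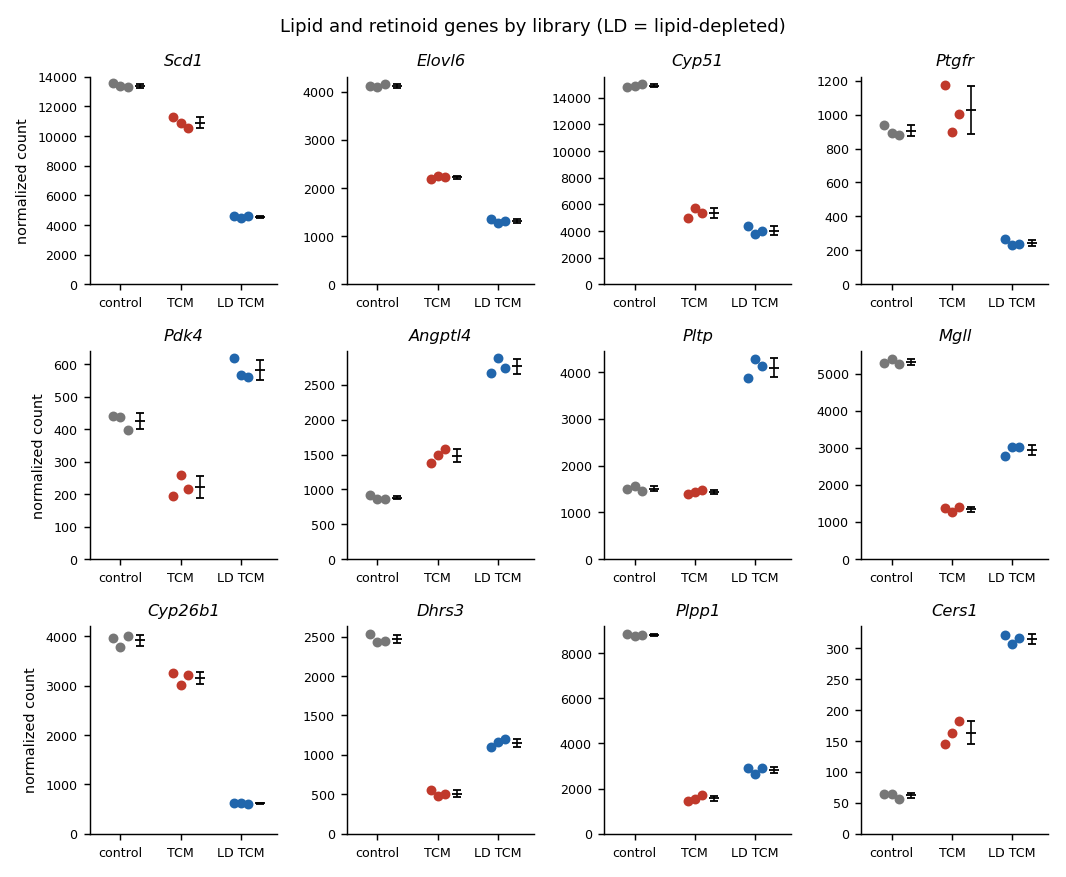
Normalized counts of 12 lipid and retinoid genes in every library, with control in gray, TCM in red and lipid-depleted TCM in blue; black bars give the mean ± SD of 3 libraries. Scd1, Elovl6, Cyp51, Ptgfr and Cyp26b1 are lower in lipid-depleted TCM than in TCM, and Pdk4, Angptl4, Pltp, Mgll, Dhrs3, Plpp1 and Cers1 are higher, with no overlap between the media in any panel.

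Targets of the oxysterol receptor LXR did not move as a group. Pltp, the phospholipid transfer protein of lipoproteins, had 1398, 1444 and 1473 normalized counts in TCM against 3877, 4279.5 and 4138 without lipids, a log2 difference of 1.51 (SE 0.06, limma adjusted p = 1.3e-07). Smpdl3a, a phosphodiesterase, rose from 1661 ± 79 to 3116 ± 131. Abca1, the cholesterol exporter often read as the LXR response, fell from 4244 ± 246 to 3651 ± 107 (log2 difference -0.22, limma adjusted p = 0.013), a call lost without lipid-depleted replicate 2 (adjusted p = 0.0667). Abcg1, its companion exporter, did not pass the test at 0.20. Of 14 tested members 5 rose (35.7%, beside 20.7% of all genes tested) and 4 fell (28.6%, beside 20.5%). The latter count was 2 without lipid-depleted replicate 2 and 5 without TCM replicate 1. Among receptors and carriers that take up lipids, Lrp8, a lipoprotein receptor, fell by 1.14 and Cd36, a fatty acid transporter, fell by 0.59, while Lipa, the lysosomal acid lipase, rose by 0.38. That list had 6 higher (35.3%) and 4 lower (23.5%) genes of 17, and 3 higher without lipid-depleted replicate 2. In the lipid droplet list 4 of 16 rose (25%) and 2 fell (12.5%), the former near the share of all genes. Without lipid-depleted replicate 1 or 3 the lower count in the lipid droplet list was 1. Its largest rise was that of Mgll, monoacylglycerol lipase, from 1346 ± 63.6 to 2942 ± 144.

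Genes that make, degrade or sense signaling lipids changed one by one. Plpp1, an ectoenzyme that dephosphorylates lysophosphatidic acid, rose from 1566 ± 123 to 2827 ± 143 and S1pr3, a sphingosine phosphate receptor, from 1642 ± 141 to 2446 ± 104. S1pr1 and Lpar1, receptors for sphingosine phosphate and lysophosphatidic acid, fell by 0.53 and 0.18. In this list 7 of 17 rose (41.2%, beside 20.7% of all genes tested) and 3 fell (17.6%, beside 20.5%). The latter count was 1 without any single lipid-depleted library. Ceramide synthases Cers1 and Cers4 rose by 0.95 and 0.72. Their sphingolipid and phospholipid list had 10 of 27 higher (37%) and 4 lower (14.8%). The higher count was 6 without lipid-depleted replicate 1 and 12 without TCM replicate 1.

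The prostaglandin list fell in 10 of 19 genes and rose in 2, with a median of -0.25. Ptgfr, the receptor of prostaglandin F2 alpha, on chromosome 3 (151796502 to 151837630, minus strand), had 1176, 899 and 1006 normalized counts in TCM and 266, 231 and 239 without lipids. The groups did not overlap, and the log2 difference of -2.05 (SE 0.11, limma adjusted p = 7.9e-07) is the largest in the list. Both cyclooxygenases, which start prostaglandin synthesis from arachidonic acid, fell: Ptgs2 from 1772 ± 179 to 953 ± 71.7 and Ptgs1 from 1936 ± 99.8 to 1226 ± 51. Hpgd, which inactivates prostaglandins, fell by 1.35 and Slco2a1, their uptake carrier, fell by 0.57. Ptger3, a prostaglandin E2 receptor, went against this with 238, 319 and 269 counts in TCM and 1134, 1008 and 1085 without lipids (1.97, limma adjusted p = 1e-06). The other gene called higher, Akr1b3, was 0.16 higher; the higher count was 4 without TCM replicate 1 and 1 without any other single library.

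Genes of retinoid handling split, with 6 of 19 higher (31.6%, beside 20.7% of all genes tested) and 4 lower (21.1%, beside 20.5%). With 1 library left out the higher count ranged from 4, without lipid-depleted replicate 2, to 8, without TCM replicate 1. Cyp26b1, which degrades retinoic acid, lies on chromosome 6 (84571414 to 84593908, minus strand). It had 3253, 3018 and 3215 normalized counts in TCM and 619.7, 632 and 606 without lipids. With tight replicates on both sides the log2 difference was -2.35 (SE 0.06, limma adjusted p = 1.5e-08). The retinoic acid binding proteins Crabp1 and Crabp2 fell by 1.42 and 0.96. Dhrs3, which turns retinal back to retinol, rose from 511 ± 42.8 to 1154 ± 53.2, and Aldh1a1, which makes retinoic acid, from 17.2 ± 1 to 74.7 ± 11.6. Its relative Aldh1a2 fell from 20 ± 2.69 to 3.74 ± 3.56, a gene with few reads whose log2 difference ranged from -3.20 to -1.60 over the settings tried and was -1.70 without lipid-depleted replicate 3, against -2.59 with all libraries. The retinoic acid receptor genes Rara, Rarb and Rarg did not pass the test (0.27, -0.41 and -0.14). Vdr, the vitamin D receptor, fell from 6054 ± 143 to 2415 ± 69.4, and Ahr, the aryl hydrocarbon receptor, from 178 ± 16 to 92.8 ± 11.8.

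Nearly all listed genes of cell division fell. In the mitosis list 30 of 30 genes fell, 28 of them at least 2-fold, with a median of -1.41. In the DNA replication list 30 of 32 fell with a median of -0.996, and in the list of DNA repair and checkpoint genes 19 of 21 fell with a median of -1.08; no member of these lists rose, and the first 2 counts were the same with any single library left out. Uhrf1, which keeps DNA methylation through replication, had 3033, 2906 and 3041 normalized counts in TCM and 1033, 1015 and 957 without lipids. The decrease was 2.99-fold (log2 difference -1.58, SE 0.06, limma adjusted p = 1.2e-07). Its control level was 3224 ± 136. Mcm10, a replication initiation factor, stood at 819.9 ± 19.5 in control, 832 ± 50 in TCM and 268 ± 10.3 without lipids. Kif11, the motor that separates spindle poles, stood at 3672 ± 151 in control, 2058 ± 92.3 in TCM and 694 ± 30 without lipids. Foxm1, a transcription factor of mitotic genes, stood at 3695 ± 61.8, 1958 ± 43.2 and 833 ± 49 in the same order.

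Among cell cycle regulators 14 of 25 fell and 0 rose; without TCM replicate 1, 1 was called higher. E2f8 and E2f7, repressors at the end of S phase, fell by 1.88 and 1.49, and Ccne2, cyclin E2, fell by 1.51. Ccnd1, cyclin D1, fell by 0.24 and Cdkn1a, the gene of the inhibitor p21, was at 25172 ± 1195 and 23603 ± 456 (limma adjusted p = 0.18). Of 18 p53 targets 7 rose (38.9%) and 2 fell (11.1%), and the higher count ranged from 4 to 8 with 1 library left out. Fas, a death receptor, rose by 1.01, while Mdm2, which degrades p53, fell by 0.39. Kinesins and tubulins, counted as whole families by symbol, had 16 of 35 and 10 of 18 members lower, with 4 and 0 higher.

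The cell cycle homology region, TTTGAA, is an element through which mitotic genes are held down outside division. On either strand it was found in the promoters (250 bases before to 50 after the start, RefSeq, GRCm38.p6) of 76% of the mitosis genes with a promoter in the table, 19 of 25, against 14.2% of 10399 tested protein-coding genes. The CCAAT box was found in 84% and 43.2%. The replication list held the cell cycle homology region in 15.4%. The mitosis list gathers genes known for this kind of control, so its share is a description, and a match of letters here is neither a proven site nor a cause. The stretches around the match nearest the start are shown for 4 genes that fell, with the match in capitals.
Mki67 (chr7:135716437-135716512, minus strand): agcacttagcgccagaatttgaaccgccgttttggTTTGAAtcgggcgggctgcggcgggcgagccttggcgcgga
Kif11 (chr19:37376328-37376403, plus strand): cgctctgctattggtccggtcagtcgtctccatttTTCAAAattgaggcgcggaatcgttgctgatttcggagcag
Cdc20 (chr4:118437321-118437396, minus strand): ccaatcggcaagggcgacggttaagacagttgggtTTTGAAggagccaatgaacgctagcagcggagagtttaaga
Cdk1 (chr10:69352887-69352962, minus strand): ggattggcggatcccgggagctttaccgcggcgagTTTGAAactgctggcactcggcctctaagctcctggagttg

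Type I interferon-stimulated genes form the other group that moved almost as one. Their proteins block viral replication, tag proteins with ISG15 or sense nucleic acids, and interferon signaling switches them on. Of 37 tested members 32 fell and 0 rose, 17 of the 32 at least 2-fold, with a median of -0.86. Isg15, on chromosome 4 (156199424 to 156200818, minus strand), had 1083, 772 and 929 normalized counts in TCM and 186, 137 and 123 without lipids. No library of one medium reached those of the other (log2 difference -2.64, SE 0.17, limma adjusted p = 1.9e-06). Oas2, Ifit1 and Oasl2, antiviral effectors, fell by 2.80, 2.04 and 2.00. The factors of the response fell as well: Irf7 from 854 ± 65 to 221 ± 10.2, Stat2 from 4377 ± 226 to 1952 ± 119, and Irf9 by 0.98. The nucleic acid sensors Zbp1, Cgas and Ifih1 fell by 3.00, 0.87 and 0.44.

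Of the 5 members that did not pass the test, Ifit3 was at 475 ± 21.7 and 529.6 ± 36.4 and its near-copy Ifit3b at 304 ± 50.3 and 265 ± 8.03, whereas Ifit1 in the same gene cluster on chromosome 19 fell from 561 ± 51 to 140.2 ± 44.7. The authors' counting could split reads between such copies, so their separate values are uncertain. Cmpk2 and Ifit2 did not pass the test either (-0.49 and 0.07), nor did Rsad2, an antiviral enzyme, at 1.13 with wide replicates (limma adjusted p = 0.069). Without lipid-depleted replicate 3, 1 member was called higher. Among genes that answer to interferon gamma, Gbp2, a guanylate-binding protein, rose from 449.8 ± 75.9 to 705 ± 38.8 and Irf1 from 1212 ± 80 to 1549 ± 64.6, while Gvin1, an interferon-induced GTPase, fell from 1527 ± 131 to 543 ± 11.3. In that list 6 of 13 fell (46.2%, beside 20.5% of all genes tested) and 3 rose (23.1%, beside 20.7%). Of 16 antigen presentation genes 4 rose (25%) and 2 fell (12.5%), so the share that rose was near that of all genes. Tapbp and H2-K1 of the class I pathway rose by 0.68 and 0.41, and Cd74, the class II invariant chain, fell by 1.26.

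The interferon-stimulated response element, searched on both strands as GAAA, any 2 bases and GAAA, was found in the promoters of 11 of 26 type I genes (42.3%), of 7 of the 9 genes with a promoter (77.8%) in the list of interferon-inducible GTPases and IRF1, which moved both ways, and in 3.56% of all tested coding genes. Genes called at least 2-fold lower held it in 9.09% and those at least 2-fold higher in 4.14%. Both lists gather genes known for interferon control, so their shares are descriptions and not a test. The stretches below show the element in genes that fell, in Ifit3, which did not pass the test, and in Cxcl10, which rose. The match is in capitals and can stand on either strand.
Isg15 (chr4:156200840-156200919, minus strand): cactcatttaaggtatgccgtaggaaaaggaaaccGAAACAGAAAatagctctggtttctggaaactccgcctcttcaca
Ifit1 (chr19:34640769-34640848, plus strand): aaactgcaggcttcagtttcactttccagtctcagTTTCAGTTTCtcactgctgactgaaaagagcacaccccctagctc
Stat2 (chr10:128270248-128270320, plus strand): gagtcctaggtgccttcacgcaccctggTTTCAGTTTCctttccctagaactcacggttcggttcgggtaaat
Ifit3 (chr19:34583372-34583451, plus strand): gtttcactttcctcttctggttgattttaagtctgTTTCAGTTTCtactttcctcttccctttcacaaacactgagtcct
Cxcl10 (chr5:92349058-92349137, minus strand): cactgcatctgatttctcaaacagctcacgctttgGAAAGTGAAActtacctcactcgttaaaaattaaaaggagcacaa

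Chemokines and acute-phase genes gave the largest rises. Cxcl10, a chemokine that attracts T cells through CXCR3, lies on chromosome 5 (92346638 to 92348889, minus strand). It had 12.4, 5.68 and 2.89 normalized counts in TCM and 836, 717 and 679 without lipids, which was the largest log2 difference among the genes named here (6.72, SE 0.36, limma adjusted p = 8.7e-07). Its control libraries were at 33.4 ± 35.9. Cxcl9, a ligand of the same receptor, had 0.951, 0 and 0 counts in TCM and 18.2, 19.3 and 25.4 without lipids, and Ccl5 had 1.9, 1.89 and 2.89 against 64.5, 65.9 and 55.7. Ccl2, which attracts monocytes, rose from 3390.1 ± 541 to 7759 ± 415 and Cxcl12 from 2158 ± 87.7 to 4268 ± 158, so the change was not limited to genes near 0 in TCM. Of 21 tested chemokine ligands 9 rose (42.9%, beside 20.7% of all genes tested) and 6 fell (28.6%, beside 20.5%). Cxcl10, Cxcl9 and Ccl5 passed the filter on low values through their lipid-depleted libraries, so they could enter this count only as rises. Cxcl5, a neutrophil chemokine, was the largest of the decreases, from 2055 ± 293 to 710.3 ± 87.

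NF-kB is held in the cytoplasm by inhibitors whose own genes it switches on. Of 27 tested factors and targets 14 rose (51.9%, beside 20.7% of all genes tested) and 5 fell (18.5%, beside 20.5%). The median was 0.23. The feedback inhibitors were among those that rose. Nfkbia, which encodes I-kappa-B alpha, had 412, 528 and 490.1 normalized counts in TCM and 1285, 1319 and 1449 without lipids, and Tnfaip3, the deubiquitinase A20, had 189, 159.9 and 202 against 529, 517 and 544. In both, each lipid-depleted library was more than 2-fold above every TCM library (log2 differences 1.51 and 1.53, limma adjusted p = 2.4e-06 and 3.8e-06). Relb, a subunit of the noncanonical pathway, rose by 0.81 and Nfkb2 by 0.43, while Rela did not pass the test (-0.01). Bcl3 and Nfkbiz, nuclear partners of p50, fell by 1.33 and 0.92. The neighbors Cxcl1 and Cxcl2, neutrophil chemokines in tandem on chromosome 5, moved in opposite directions: Cxcl1 had 842, 939 and 908 counts in TCM and 577, 498 and 565 without lipids, and Cxcl2 had 28.5, 28.4 and 26 against 261, 357 and 279. Both differences passed the test (-0.71 and 3.38, limma adjusted p = 0.00011 and 4.5e-07).

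The NF-kB consensus was found in the promoters of 13 of 19 genes of this list (68.4%) and in 6.4% of all tested coding genes. Genes at least 2-fold higher held it in 5.26% and those at least 2-fold lower in 7.47%. The list gathers known NF-kB factors and targets, so its share is a description and not a test. Cxcl1 and Cxcl2 carry the same letters in capitals, GGAATTTCCC, at 70 and 96 bases before their starts. Matches were also found in Bcl3 and Csf1, which fell, and in Sod2 and Nfkbid, which did not pass the test. Cxcl1, which fell, and Cxcl2, which rose, are shown with Cxcl10, Nfkbia and Tnfaip3, which rose.
Cxcl1 (chr5:90891140-90891219, plus strand): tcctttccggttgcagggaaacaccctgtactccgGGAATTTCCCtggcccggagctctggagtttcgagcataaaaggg
Cxcl2 (chr5:90903768-90903847, plus strand): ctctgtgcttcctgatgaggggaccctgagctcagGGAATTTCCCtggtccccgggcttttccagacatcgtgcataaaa
Cxcl10 (chr5:92348948-92349027, minus strand): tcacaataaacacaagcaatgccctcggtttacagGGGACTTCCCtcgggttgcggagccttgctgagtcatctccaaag
Nfkbia (chr12:55492632-55492711, minus strand): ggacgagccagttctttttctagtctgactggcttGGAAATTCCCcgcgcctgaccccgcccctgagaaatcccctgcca
Tnfaip3 (chr10:19015378-19015457, minus strand): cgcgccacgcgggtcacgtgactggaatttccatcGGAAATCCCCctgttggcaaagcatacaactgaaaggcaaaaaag

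The interleukin 6 axis fell. Il6 itself had 229, 174 and 188 normalized counts in TCM and 40.5, 31.4 and 44 without lipids, near its control level of 30.9 ± 5.09 (log2 difference -2.32, SE 0.18, limma adjusted p = 7.1e-06). Genes of its pathway fell with it: Socs3, the feedback inhibitor of STAT3, from 2182 ± 230.4 to 788 ± 57.1, Osmr, the oncostatin M receptor, from 24876 ± 915 to 13536 ± 149.7, and Stat3 by 0.52. Receptor genes of other interleukins that fell included Il13ra2, a decoy receptor of interleukin 13, from 66.1 ± 22.2 to 6.22 ± 3.12, and Il1rl1, the interleukin 33 receptor, from 6958 ± 777 to 2819 ± 131. Il33 rose from 104 ± 11.7 to 234 ± 28.5, and Lif, a relative of interleukin 6, from 372 ± 44.2 to 708 ± 43.1. In the list 11 of 20 fell (55%, beside 20.5% of all genes tested) and 3 rose (15%, beside 20.7%). Over all interleukins and their receptors 17 of 37 fell (45.9%) and 10 rose (27%).

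Acute-phase and complement genes split from interleukin 6. In that list 11 of 18 rose and 3 fell, with a median of 0.44. C1s1, a protease that starts the classical complement cascade, had 878, 797 and 796 normalized counts in TCM and 3429, 3366 and 3666 without lipids (log2 difference 2.08, SE 0.06, limma adjusted p = 5e-08). Its partner C1ra rose from 1685 ± 80.6 to 3386 ± 10.2 and Serping1, the inhibitor of both, from 1970 ± 69.2 to 3630 ± 71.8. Saa3, an acute-phase protein, had 1.9, 10.4 and 7.7 counts in TCM against 128, 100.4 and 159. It passed the filter on low values through its lipid-depleted libraries, so it could be counted only as a rise. Serpina3n fell from 271 ± 41.9 to 71 ± 3.75, with the limit that its reads could be split with near-identical paralogs, as could those of Saa1 and Saa2. Lbp, which hands lipopolysaccharide to its receptor, rose from 11.8 ± 2.78 to 62.3 ± 6.78 and the receptor gene Tlr4 from 559 ± 66.7 to 889.9 ± 23.8.

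**Figure D4:**
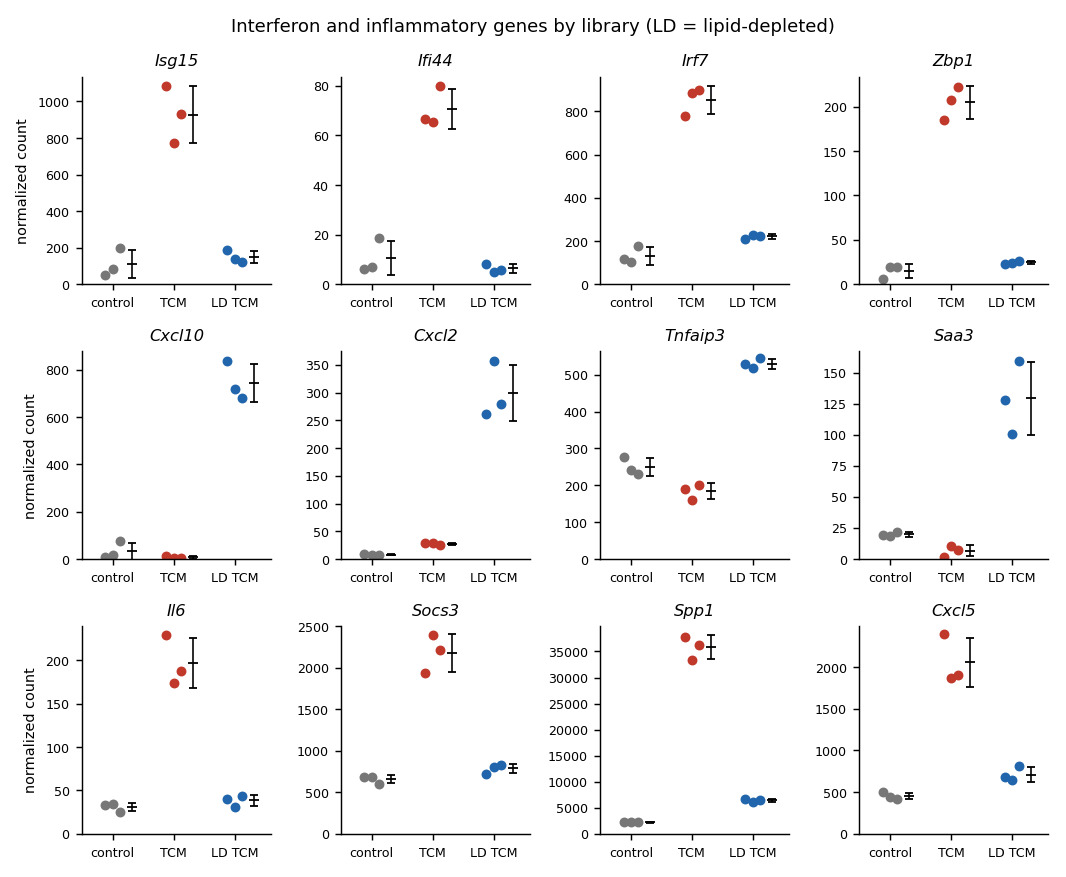
Normalized counts of 12 interferon, NF-kB and interleukin 6 genes in every library, with control in gray, TCM in red and lipid-depleted TCM in blue; black bars give the mean ± SD of 3 libraries. Isg15, Ifi44, Irf7, Zbp1, Il6, Socs3, Spp1 and Cxcl5 are highest in TCM, and Cxcl10, Cxcl2, Tnfaip3 and Saa3 are highest in lipid-depleted TCM.

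Most contractile genes were higher without lipids. In the list 15 of 24 rose and 1 fell, with a median of 0.43. Acta2, smooth muscle actin, had 58311, 56020.5 and 66174 normalized counts in TCM and 127006, 126923 and 128944 without lipids, with 291565 ± 3266 in control. The difference of 1.09 (SE 0.07, limma adjusted p = 1.6e-06) left the lipid-depleted libraries below control. Myl9 and Mylk, a myosin light chain and its kinase, rose by 0.87 and 0.90. Srf and its coactivators Mrtfa and Mrtfb did not pass the test, with log2 differences of -0.01, -0.02 and 0.02. The 1 gene that fell was Myocd, the smooth muscle coactivator of SRF, from 64.2 ± 8.59 to 43.6 ± 7.45; the count of lower genes was 4 without TCM replicate 1, and 0 without TCM replicate 2 or 3 or lipid-depleted replicate 2 or 3. Pericyte markers rose as well: Rgs5 went from between 27.9 and 40.7 to between 84.2 and 113, and Abcc9 from between 8.67 and 11.4 to between 74.5 and 91.8. Both stayed below their control means, 802 for Rgs5 and 165 for Abcc9. The part of pericytes in these rises was not tested.

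The CArG box, the sequence bound by SRF, was found in 5 of 18 promoters of the contractile list (27.8%) and in 1.64% of all tested coding genes, and in 1.88% of those at least 2-fold higher. The contractile list includes genes known for SRF control, so its share is a description and not a test. The box is shown in capitals for the 3 carriers that rose. The other 2, Srf and Ldb3, did not pass the test.
Myl9 (chr2:156775268-156775347, plus strand): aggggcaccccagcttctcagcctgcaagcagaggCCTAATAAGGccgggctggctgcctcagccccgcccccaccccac
Vcl (chr14:20929148-20929215, plus strand): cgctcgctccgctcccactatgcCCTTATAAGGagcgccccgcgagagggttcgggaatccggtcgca
Cnn2 (chr10:79988509-79988588, plus strand): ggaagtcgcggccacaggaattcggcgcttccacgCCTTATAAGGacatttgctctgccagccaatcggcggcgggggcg

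Matrix genes changed in composition. Of 32 tested glycoproteins and proteoglycans 19 rose and 5 fell, with a median of 0.44. Ogn, the small proteoglycan osteoglycin, lies on chromosome 13 (49608046 to 49624501, plus strand). It had 2272, 2134 and 2035 normalized counts in TCM and 11509.6, 11101 and 11428 without lipids. The lipid-depleted libraries also stood above control, 3362 ± 95, and the log2 difference was 2.40 (SE 0.05, limma adjusted p = 9.8e-09). Mfap4, a protein of elastic fibers, rose from 1636 ± 240.4 to 5622 ± 64.1, Eln, elastin, from 224 ± 0.886 to 603 ± 12.3, and Fmod and Aspn, small proteoglycans that bind collagen, by 1.35 and 1.36. Lox, which crosslinks collagen and elastin, rose from 49778 ± 2114 to 120328 ± 3062, close to its control level of 121883 ± 2566. Of 36 tested collagen chains 16 rose (44.4%, beside 20.7% of all genes tested) and 7 fell (19.4%, beside 20.5%). Col8a2 was the largest of the rises, from 152 ± 16.6 to 823 ± 46.2. Col1a1 and Col1a2, the chains of collagen I, rose by 0.54 and 0.52; for Col1a1 the difference ranged from 0.38 to 0.66 over the settings tried.

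The 5 matrix genes that fell included Spp1, Vcan and Tnn, while Postn, periostin, and Thbs2, thrombospondin 2, rose by 0.75 and 0.91. Spp1, the secreted phosphoprotein osteopontin, on chromosome 5 (104435118 to 104441050, plus strand), had 37861, 33445 and 36224 normalized counts in TCM and 6674, 6152 and 6539 without lipids. It fell 5.55-fold (log2 difference -2.47, SE 0.06, limma adjusted p = 1.1e-08) and stayed above its control level of 2219.7 ± 51.1. Vcan, the proteoglycan versican, fell from 45121 ± 3469.8 to 28760.0 ± 1935 and Tnn, tenascin N, by 0.49. Of 27 matrix proteases and their inhibitors 16 rose (59.3%, beside 20.7% of all genes tested) and 5 fell (18.5%, beside 20.5%). The median was 0.50. The collagen-degrading Mmp2 and its membrane activator Mmp14 rose by 0.54 and 0.55, and Mmp9 from 194 ± 15.8 to 434 ± 15.7. Inhibitors split: Timp2 and Timp3 rose by 0.65 each and Timp1 fell from 10930.4 ± 754 to 5189 ± 159.

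Genes of secreted signals and their antagonists changed in both directions. Grem1, a secreted antagonist of BMPs, had 24423, 21582 and 21396 normalized counts in TCM and 7829, 7343 and 7872 without lipids (log2 difference -1.55, SE 0.06, limma adjusted p = 1.6e-07). The antagonists Bmper and Nog fell by 0.79 and 0.56, and the ligand gene Bmp4 rose from 39.1 ± 14.4 to 136 ± 12.5. Id2, a common BMP target, fell by 1.17, and Id1 and Id3 did not pass the test (-0.63 and -0.28). Over the TGF-beta and BMP list 12 of 33 rose (36.4%, beside 20.7% of all genes tested) and 10 fell (30.3%, beside 20.5%).

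In the Notch list 6 of 13 rose and 1 fell (2 without TCM replicate 1), with a median of 0.52. The target genes Hey2, Heyl and Hey1 rose by 2.44, 1.97 and 1.24, the ligands Jag1 and Dll1 by 1.22 and 1.07, and the receptor Notch1 fell by 0.39. Jag1 was abundant, with 5674, 5138 and 5561 normalized counts in TCM and 12835, 12209 and 12989.8 without lipids. Wnt pathway genes rose in 12 of 33 cases (36.4%, beside 20.7% of all genes tested) and fell in 6 (18.2%, beside 20.5%). The Frizzled receptors Fzd5, Fzd8, Fzd4 and Fzd2 rose by 1.32, 0.79, 0.76 and 0.71, Wnt9a rose by 1.46, and Wnt4 fell by 1.36.

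Growth factor genes moved in both directions, 14 of 32 higher (43.8%, beside 20.7% of all genes tested) and 11 lower (34.4%, beside 20.5%). With 1 library left out these counts ranged from 11 to 14 and from 8 to 13. Gas6, the ligand of the TAM receptors, had 27033, 25208 and 27345 normalized counts in TCM and 74354, 74008 and 73504 without lipids, above its control level of 61838 ± 1644 (log2 difference 1.48, SE 0.05, limma adjusted p = 7.3e-08). Igf1 rose from 577 ± 98.5 to 1434 ± 149, together with the docking proteins of its receptor, Irs1 (1.16) and Irs2 (1.08). Its binding protein Igfbp5 fell from 45152 ± 1550.3 to 17258 ± 782. The EGF receptor ligands Ereg and Areg fell by 1.43 and 1.81, and Hgf by 0.71. The PDGF receptors separated, Pdgfra falling by 0.60 and Pdgfrb rising by 0.40.

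Early response genes fell more often than they rose. Egr1, Fos, Egr2 and Fosl1, transcription factors induced within minutes to hours of growth factor signaling, fell by 1.15, 1.40, 1.63 and 1.48, whereas Klf2 rose by 1.45 and Atf3 by 0.43. In the list 8 of 22 fell (36.4%, beside 20.5% of all genes tested) and 4 rose (18.2%, beside 20.7%). The share that rose was near that of all genes, and the lower count ranged from 8 to 12 with 1 library left out. TCM libraries spread widely, with Egr2 at 1102, 759.7 and 1680.0 normalized counts against 357, 286 and 461. Feedback genes of the ERK pathway fell in 9 of 18 cases (50%) and rose in 2 (11.1%). The higher count was 4 without TCM replicate 1 and 1 without lipid-depleted replicate 2. In the cyclic GMP and cyclic AMP list 9 of 23 rose (39.1%, beside 20.7% of all genes tested) and 5 fell (21.7%, beside 20.5%). The median was 0.09. Pde1a, a phosphodiesterase, fell by 0.52, a call lost without lipid-depleted replicate 2 or 3. Npr3, the natriuretic peptide clearance receptor, went from 99.7 ± 10.6 to 588 ± 12.3, and Gucy1a1, a subunit of soluble guanylate cyclase, from 4.14 ± 1.99 to 46.3 ± 6.77. Rgs4, which turns off G protein signals, had 574, 477 and 556 counts in TCM and 3039, 2675 and 2999.6 without lipids (2.44, SE 0.09, limma adjusted p = 8.5e-08).

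Metabolic genes shifted modestly. Of 24 genes of glycolysis and lactate transport 14 fell and 1 rose, with a median of -0.26. Slc2a1, the glucose transporter, fell from 3874 ± 328 to 2237 ± 37.5, and the lactate carriers Slc16a3 and Slc16a1 fell by 0.91 and 0.78. The 1 gene that rose was Slc2a3, another glucose transporter, by 0.40, a call lost without any single lipid-depleted library or TCM replicate 3, while a second member was called higher without TCM replicate 1. Of 20 nucleotide and one-carbon genes 12 fell and 2 rose, or 1 without any single lipid-depleted library. Dck and Umps, which supply deoxycytidine and uridine nucleotides, fell by 0.92 and 0.65. In the citric acid cycle list 6 of 24 fell (25%, beside 20.5% of all genes tested) and 2 rose (8.33%, beside 20.7%). These counts were 1 and 1 without lipid-depleted replicate 2, and 3 and 0 without lipid-depleted replicate 1. They were 2 and 1 without lipid-depleted replicate 3, and 7 and 4 without TCM replicate 1. Without TCM replicate 2 they were 6 and 3, and without TCM replicate 3 they were 5 and 1.

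Genes of the oxidative stress factor NRF2 fell in 12 of 26 cases (46.2%, beside 20.5% of all genes tested) and rose in 2 (7.69%, beside 20.7%). The higher count was 4 without TCM replicate 2. Gclc, which limits glutathione synthesis, fell from 3821 ± 199 to 2271 ± 89.2, while Gpx3, the secreted glutathione peroxidase, had 420.2, 545 and 529.5 counts in TCM and 1796, 1869.6 and 1813 without lipids. Mt2, a metallothionein listed among glucocorticoid targets, fell from 3425 ± 278 to 1105 ± 55.3. The glucocorticoid list itself split, with 9 of 20 lower (45%) and 8 higher (40%) and a median of -0.03. Each of these counts ranged from 6 to 9 with 1 library left out. In the iron and heme list 7 of 18 fell (38.9%) and 3 rose (16.7%). Steap1, a metalloreductase, fell by 1.12 and Fth1, the ferritin heavy chain, from 41119.6 ± 4952 to 28717 ± 627. Slc40a1, the iron exporter ferroportin, rose from 312 ± 61.3 to 515 ± 29.7.

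Lysosomal genes rose in 18 of 31 cases and fell in 4 (2 without lipid-depleted replicate 1 or 3), with a median of 0.25, and subunits of the vacuolar proton pump in 10 of 20 with 0 lower. Atp6v0b of that pump rose from 4356 ± 311 to 6515 ± 209 and Ctsd, cathepsin D, from 14846 ± 1655 to 20179 ± 399. Mcoln2, an endolysosomal cation channel, went the other way, with 139.7, 121 and 172 counts in TCM and 38.1, 33.5 and 30.3 without lipids. Of 18 clock genes 10 fell (55.6%, beside 20.5% of all genes tested) and 3 rose (16.7%, beside 20.7%). Per2 fell by 0.54 and Arntl, the gene of the activator BMAL1, rose by 0.54.

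Transcripts of the mitochondrial genome fell in 11 of 13 cases, with mt-Nd2 at 79931, 105812 and 83207 normalized counts in TCM and 39555, 41629 and 43616 without lipids. The largest decrease in absolute count among all genes tested was that of Gm10925, which fell from 269373 ± 28636 to 176553 ± 8242. Reads of Gm10925 and of the mitochondrial genes could be split between near-identical copies. Of the nuclear subunits of the respiratory chain 16 of 81 were higher (19.8%, beside 20.7% of all genes tested) and 9 lower (11.1%, beside 20.5%).

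Several other genes were among the largest changes. Stc1, the hormone stanniocalcin, had 202, 234 and 218 normalized counts in TCM and 42.2, 35.5 and 38.1 without lipids, below its control level of 66.3 ± 10.1. Trhde, which degrades thyrotropin-releasing hormone, and Dio3, which inactivates thyroid hormone, fell from 60.4 ± 9.61 to 8.97 ± 1.85 and from 68 ± 18.6 to 12 ± 1.98, near control levels of 6.31 and 7.54. Arc, an early gene of synaptic signaling, fell by 2.35, although TCM replicate 3 at 519.9 stood well above the other 2 at 176 and 187. Fgf18 had 11.4, 4.73 and 6.74 counts in TCM and 52.1, 56.8 and 64.5 without lipids, and Chodl, a membrane lectin, had 15.2, 6.62 and 7.7 against 122, 143 and 128. Hs3st5, a heparan sulfate sulfotransferase, and Cdh8, a cadherin, rose by 2.68 and 2.78. Gjb2, the gap junction protein connexin 26, rose from 56.6 ± 13 to 246 ± 11.9, far below its control level of 3148 ± 193.

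Families taken whole by symbol ranged widely around the shares for all genes. Those shares were 20.7% higher and 20.5% lower. Cytochrome P450 genes rose in 11 of 25 cases (44%) with 2 lower (8%), and solute carriers in 63 of 233 (27%) with 37 lower (15.9%). Potassium channels rose in 13 of 36 (36.1%) with 8 lower (22.2%). SOX factors fell in 5 of 10 cases (50%) with 0 higher, including Sox9 from 477 ± 63.5 to 219 ± 23. Cadherins and protocadherins fell in 16 of 66 (24.2%) with 7 higher (10.6%). Of 367 zinc finger genes 40 were higher (10.9%) and 35 lower (9.54%). By biotype, 22% of protein-coding genes were higher and 21.6% lower, against 10.6% and 5.29% of antisense genes, whose counts depend on a strand setting not given in the sources used here. Of 18 genes on the mitochondrial chromosome 1 was higher and 11 lower, while on each numbered chromosome between 16.2% and 23.6% were called in each direction.

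**Figure D5:**
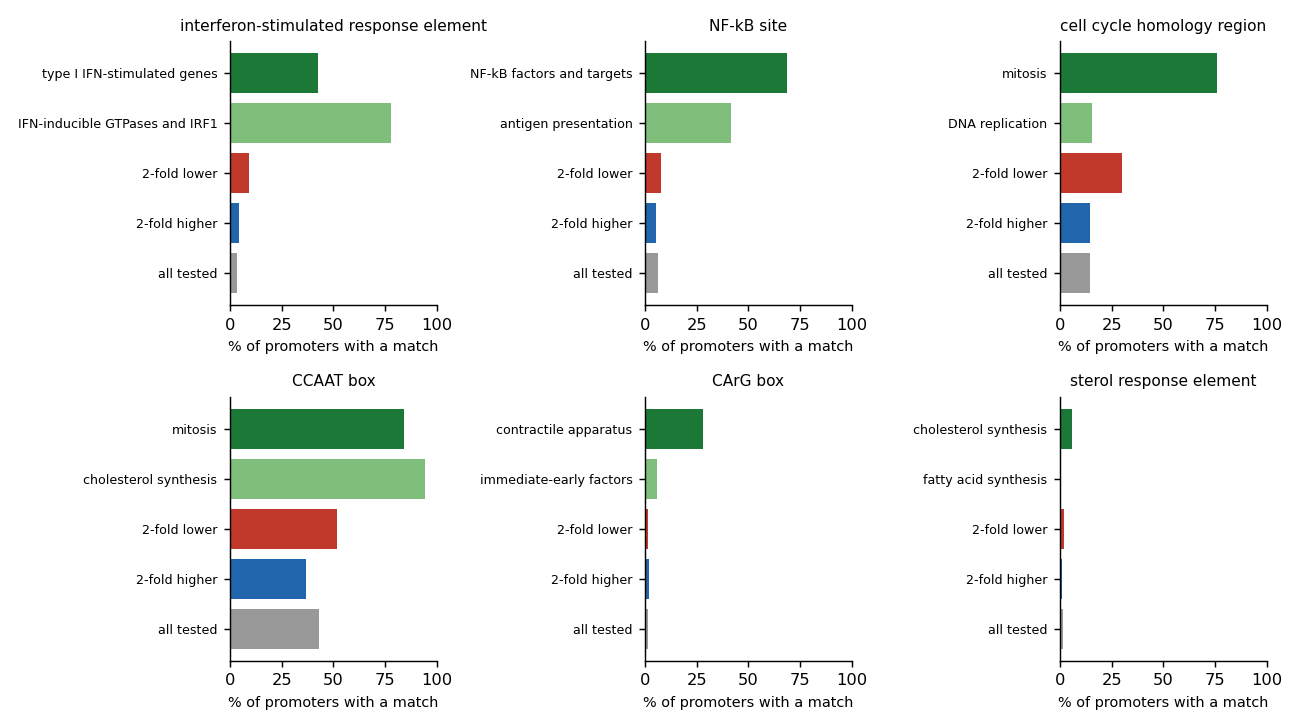
Percent of promoters holding each of 6 motifs, for 2 gene lists per motif (greens), for genes called at least 2-fold lower (red) or higher (blue) and for all tested coding genes with a promoter (gray). The interferon element is found in 42.3% of type I interferon-stimulated genes against 3.56% of all, and the cell cycle homology region in 76% of mitosis genes and 29.9% of genes at least 2-fold lower against 14.2%. The type I interferon and mitosis lists gather genes known for such control, so their shares are descriptions and not a test.

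A last set of motif shares concerns the lipid lists. The sterol response element, searched as TCACNCCAC, was found in the promoter of 1 of 17 cholesterol synthesis genes, Hmgcs1, and in 1.42% of all tested coding genes. The CCAAT box was found in 94.1% of that list and in 43.2% of all tested coding genes. Its share differed widely between other lists, such as 89.5% for endoplasmic reticulum chaperones and 7.14% for complement and acute-phase genes. Where the sterol element had no match, only these letters are absent from 250 bases before to 50 bases after the start.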

How the data were processed

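RNA was measured by bulk sequencing of 9 libraries, prepared with a stranded TruSeq kit per the labels' protocols. The submitters' processing notes name DESeq2, the build mm10, STAR 2.7.9a, FastQC and Trim Galore 0.6.6. How reads were counted, with which strand setting and annotation, is not given in the sources used here. The deposited values are a signal made by the authors: counts that a single size factor scales in each library. Whole reads were recovered from all values within a tolerance of 0.01.

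From these values, log2(value + 1) was fitted with limma 3.58.1 in R 4.3.3 (variance trend, 6 libraries, 4 residual degrees of freedom), with Benjamini-Hochberg adjustment over 16489 genes and a threshold of 0.05. Differences are lipid-depleted TCM minus TCM on this log2 scale, which understates changes of genes with few reads; ± gives the SD of 3 libraries. The fit was also run on simulated counts in which few genes changed and both groups had the same spread. In the data many genes were called and TCM libraries varied more, so that run cannot vouch for the calls. Names and coordinates are from GENCODE M21 (GRCm38), promoters from RefSeq. Of 13317 tested coding genes 10399 had a promoter in the table; motif shares are over these.

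The gene lists and the rule for named genes (largest changes, and 3 called genes per list) were chosen with earlier results of these data known. Genes outside the rule were picked with their values known. Alternatives were pseudocounts 0.5 and 5, no filter or a filter at 50, 3 other scalings, edgeR 4.0.16, DESeq2 1.42.0 and voom on the recovered reads, all 9 libraries, a replicate block, a threshold of 0.01 and leaving out each library.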

Additional observations from a re-analysis of the deposited data

How the results depend on the processing

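No called gene changed sign in any of 19 alternatives. The count of 6791 called genes was 6832 with edgeR, 6597 with DESeq2, 6820 with voom and 6373 with the replicate number as a block. Deviations of same-numbered libraries correlated at -0.0186, -0.0519 and -0.0421, and those of the other pairs at -0.0603 to 0.0954. Whether same-numbered libraries belong together is not given in the sources used here, and these correlations cannot settle it. A threshold of 0.01 left 4367 (2142 higher and 2225 lower), and a filter at 50 left 305 genes at least 2-fold higher, fewer genes being tested. Leaving out single libraries gave between 4839 and 8096 called genes, 2370 to 4032 higher and 2469 to 4064 lower, with 892 to 1057 at least 2-fold (419 to 545 higher, 448 to 512 lower). The highest count came without TCM replicate 1 and the lowest without lipid-depleted replicate 3. Of 280 genes named by the rule, DESeq2 and voom each lost the call of 1 and edgeR of 0. Leaving out 1 library lost between 1 and 20, and a threshold of 0.01 lost 26. The rule picks mostly among called genes with large changes, so these losses understate those over all calls. Of all 6791 calls, 4803 were kept without lipid-depleted replicate 3. Genes picked outside the rule are not among the 280. Depth limits genes under 50 counts, of which 18.1% were called.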
